A study of Mus musculus with 17 samples.

Results

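The alpha-arrestins measured here were Txnip, Arrdc1, Arrdc2, Arrdc3 and Arrdc4. Every probe set that the array's annotation ties to exactly 1 of these symbols was kept, which gave 9 of the 45101 probe sets of the array, or 5 of the 18193 genes it measures under a single symbol. The 5 genes were selected on their sleep-deprived against undisturbed values in these same arrays, seen in earlier results, so their differences between the groups are given as a description, and no p is given for them.

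Hippocampal RNA of 17 male C57BL/6J mice (entered as C57/BL6 in the genotype label) was hybridised to Affymetrix Mouse 430_2 arrays, with 1 animal per array. The 8 sleep-deprived mice were kept awake by gentle handling in the home cage for 5 h from about the time the lights came on. The 9 undisturbed mice stayed in their home cages over the same hours. All animals were housed singly, had been handled daily for 6 days beforehand, and were 2 months old by the age label and 2 to 4 months old by the husbandry notes. No group was handled and then allowed to sleep, so handling and lost sleep cannot be told apart. The tissue was the whole dissected hippocampus, and in such bulk RNA fewer cells of a type and less RNA per cell cannot be told apart. Values are log2 signals, on which a step of 1 is a doubling.

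Alpha-arrestins are adaptor proteins of the arrestin fold that bring ubiquitin ligases of the NEDD4 family to membrane proteins, which are then internalised or sorted. Txnip, the thioredoxin-interacting protein, also binds and inhibits thioredoxin and lowers glucose uptake through glucose transporters. Txnip and Arrdc4 are both transcribed in response to glucose through MondoA and ChREBP, factors that with their partner Mlx bind paired E-box-like elements, and Txnip is also known as a target of FOXO factors and of glucocorticoids.

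The promoters of Txnip and Arrdc4 are shown because these are the 2 members known to respond to glucose through such elements. Each is the RefSeq window of 250 bases before to 50 bases after the annotated start (GRCm38.p6), read 5′ to 3′ along the gene, with capitals on the E-box CACGTG, on its variant CACGAG and on the FOXO letters GTAAACA, all searched on both strands. In Txnip the capitals run through the stretch of 5 bases between the paired elements.
Txnip, chr3:96557707-96558006, plus strand: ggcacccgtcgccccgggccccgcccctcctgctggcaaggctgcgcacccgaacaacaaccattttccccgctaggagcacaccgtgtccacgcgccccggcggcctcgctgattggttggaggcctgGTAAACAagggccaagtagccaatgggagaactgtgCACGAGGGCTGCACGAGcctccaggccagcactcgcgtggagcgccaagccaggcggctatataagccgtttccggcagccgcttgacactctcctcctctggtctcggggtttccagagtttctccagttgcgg
Arrdc4, chr7:68749189-68749488, minus strand: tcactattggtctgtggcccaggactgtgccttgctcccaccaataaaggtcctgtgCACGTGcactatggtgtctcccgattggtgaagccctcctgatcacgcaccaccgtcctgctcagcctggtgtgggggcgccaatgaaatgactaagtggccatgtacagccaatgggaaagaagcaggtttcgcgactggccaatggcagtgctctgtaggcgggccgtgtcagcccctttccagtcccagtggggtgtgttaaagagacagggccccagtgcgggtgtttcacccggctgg
The Txnip window held CACGAG at 85 and 74 bases before the start, and GTAAACA, the letters of a FOXO element, at 121 bases before it. Such a pair of CACGNG elements 5 bases apart was in 16 of 32851 promoter windows of the mouse table (0.0487%), whereas CACGAG alone was in 6.47% and GTAAACA in 3.65%. The Arrdc4 window held 1 CACGTG, 193 bases before the start, which 7.15% of all windows hold at some position. Of the others, the Arrdc2 window (chr8:70839671-70839970, minus strand) held 1 CACGAG, that of Arrdc1 (chr2:24935232-24935531, minus strand) held 2, and none of the 3 windows of Arrdc3 on chromosome 13 held any of these motifs. AGAACA, the letters of a glucocorticoid receptor element, was in none of the 7 windows of the 5 genes, against 19% of all windows. These matches are descriptions of the letters in the windows and not binding sites.

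Arrays of both groups had similar medians, from 6.17 to 6.22 in sleep-deprived and from 6.14 to 6.19 in undisturbed mice. The 11 measured markers of hippocampal subfields had gene means from 7.38 to 10.9, all above the array medians. Whether each was detected above background was not tested. Markers of choroid plexus, which lies against the hippocampus, varied between the dissections. The mean of the 13 measured ran from 5.52 to 7.08 in sleep-deprived and from 5.49 to 6.86 in undisturbed mice, and 5 arrays stood above the others (sleep-deprived replicates 3, 5 and 7, undisturbed replicates 4 and 9). Differences of most of the alpha-arrestin probe sets are given below with and without these arrays.

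Across the 9 probe sets, 8 had a higher mean in sleep-deprived mice and 1 a lower mean, and the values of the groups overlapped in all 9. Over the array, the groups did not overlap in 219 of 45037 probe sets, so overlap was the usual case. The median size of the difference was 0.15 on the log2 scale, against 0.06 over all probe sets. In limma's fit over all probe sets, 1 of the 9 passed a Benjamini-Hochberg adjusted p of 0.05, against 1.81% of all probe sets; since this contrast had a part in the choice of the genes, nothing is read from that count.

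**Figure D1:**
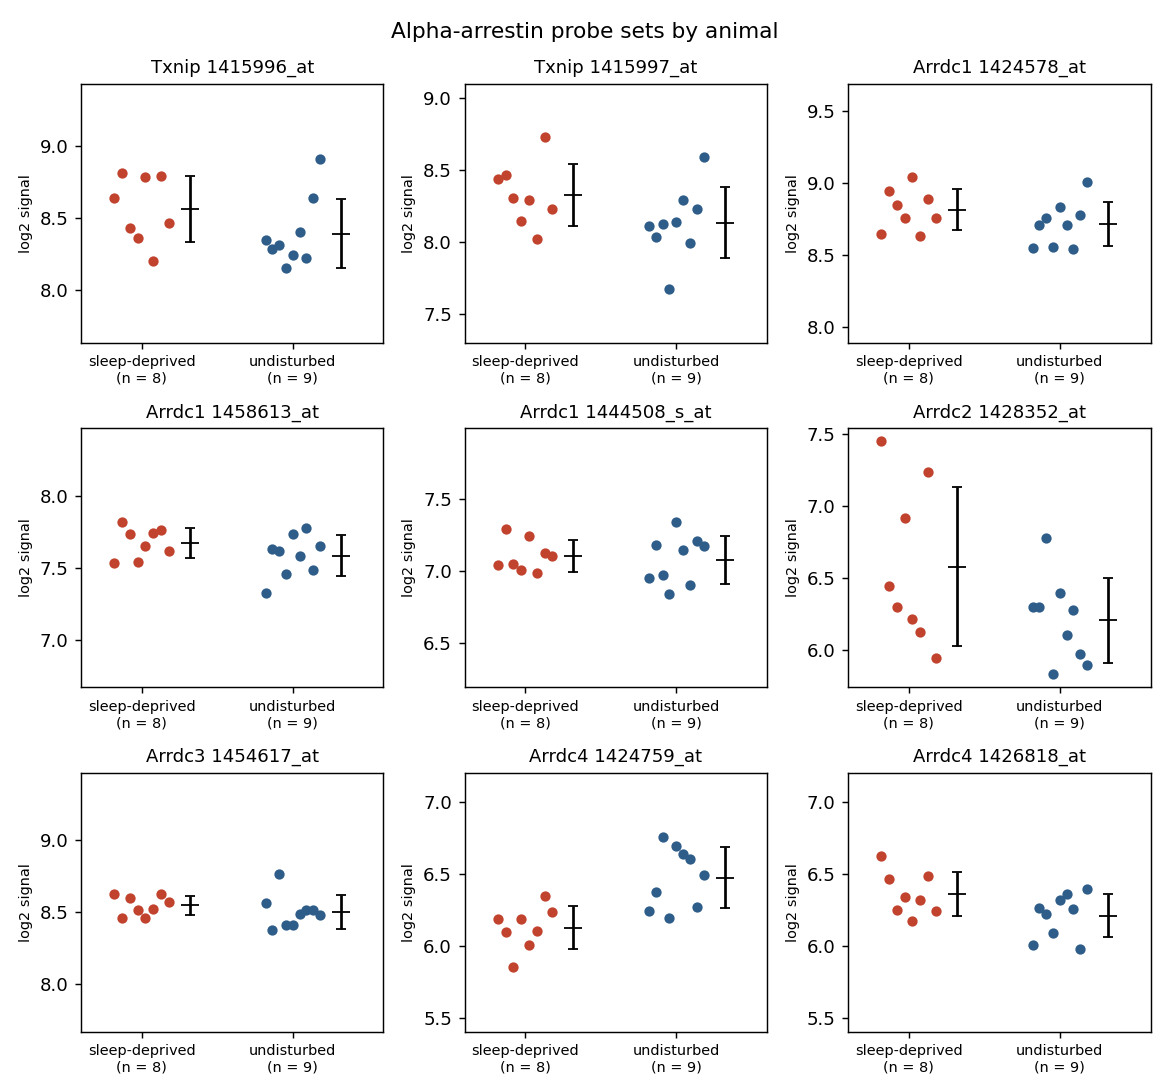
Log2 signal of each alpha-arrestin probe set in every animal, with sleep-deprived mice (n = 8) left of undisturbed mice (n = 9); dashes and bars are the group mean and SD. All panels overlap between groups, as do all but 219 of 45037 probe sets of the array. The 3 highest values of Arrdc2 are sleep-deprived mice, and the Arrdc4 probe sets differ in opposite directions.

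Txnip was measured by 2 probe sets with small differences between the groups. Probe set 1415996_at had a lowest, median and highest signal of 8.21, 8.55 and 8.81 in sleep-deprived mice, against 8.16, 8.31 and 8.91 in undisturbed mice. The difference was 0.17 (SE 0.10), or 1.13-fold, and ran from 0.13 to 0.24 over all alternatives below. The highest value of all came from an undisturbed mouse, replicate 9, whose array was among those high in choroid plexus markers. Probe set 1415997_at ran from 8.02 through a median of 8.30 to 8.72 in sleep-deprived mice, against 7.67, 8.12 and 8.59 in undisturbed mice. The difference was 0.19 (SE 0.10), and 0.13 without the 5 arrays high in choroid plexus markers. The probe sets followed each other from animal to animal, with a correlation of 0.82 across sleep-deprived and 0.86 across undisturbed mice. Txnip was a variable gene within both groups: the spread of 1415996_at within groups was larger than that of 96.9% of the 2000 probe sets nearest to it in mean signal.

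Arrdc1, which recruits the ESCRT protein Tsg101 to the plasma membrane and drives the budding of microvesicles, was measured by 3 probe sets. The brightest, 1424578_at, averaged 8.81 ± 0.14 in sleep-deprived and 8.71 ± 0.15 in undisturbed mice (SD, n = 8 and 9), a difference of 0.10 (SE 0.07). The other 2, 1458613_at and 1444508_s_at, differed by 0.09 (SE 0.06) and 0.03 (SE 0.07). All 3 differences were within 2 SEs of 0. Without the 5 arrays high in choroid plexus markers they were 0.05, 0.06 and -0.01 in the same order. Arrdc3, an adaptor for the beta-adrenergic receptor that is linked to energy expenditure, had 1 probe set, 1454617_at. It averaged 8.55 ± 0.07 in sleep-deprived and 8.50 ± 0.12 in undisturbed mice, a difference of 0.05 (SE 0.05). It was 0.02 without the 5 arrays high in choroid plexus markers, and 0.08 without undisturbed replicate 3, whose signal of 8.76 was the highest. Of the 5 genes it varied least relative to its brightness, at the 38.4th percentile of spread among the 2000 nearest probe sets.

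Arrdc2, a less studied family member, had the widest spread within groups of the 9 probe sets. Probe set 1428352_at had a lowest, median and highest signal of 5.94, 6.37 and 7.45 in sleep-deprived mice, against 5.83, 6.28 and 6.78 in undisturbed mice. The mean difference was 0.37 (SE 0.18), or 1.30-fold. Of the sleep-deprived mice, 3 (replicates 1, 7 and 4, at 7.45, 7.24 and 6.92) lay above every undisturbed mouse; the other 5 lay within the undisturbed range. The difference was 0.25 without replicate 1, and 0.27 without the 5 arrays high in choroid plexus markers. The spread of Arrdc2 within groups exceeded that of 99.4% of the 2000 probe sets nearest to it in mean signal.

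Arrdc4, the family member closest to Txnip, gave opposite results at its 2 probe sets. At 1424759_at the lowest, median and highest signals were 5.85, 6.14 and 6.35 in sleep-deprived mice, against 6.19, 6.49 and 6.75 in undisturbed mice, a difference of -0.35 (SE 0.08), or 1.27-fold lower. None of the 8 sleep-deprived mice reached the undisturbed mean, and 6 lay below every undisturbed mouse. Without the 5 arrays high in choroid plexus markers the difference was -0.35, and with each array left out in turn it ran from -0.38 to -0.31.

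At 1426818_at the order of the groups was the other way round. The lowest, median and highest signals were 6.17, 6.33 and 6.63 in sleep-deprived mice, against 5.98, 6.26 and 6.40 in undisturbed mice, a difference of 0.15 (SE 0.07). Within each array, the signal of 1424759_at minus that of 1426818_at was -0.24 ± 0.15 in sleep-deprived and 0.26 ± 0.15 in undisturbed mice (SD, n = 8 and 9). It ran from -0.44 to -0.01 in sleep-deprived and from 0.09 to 0.53 in undisturbed mice, so that the groups did not overlap, and it differed between them by -0.50 (SE 0.07). This measure was chosen after the values were seen. Among 9010 genes with at least 2 probe sets, the same gap between the 2 brightest did not overlap between the groups in 26 (0.289%), and 5 genes, Arrdc4 included, moved as far or farther; the median move was 0.06. The difference was -0.55 without the 5 arrays high in choroid plexus markers. Both probe sets were dim, with means of 6.31 and 6.28 near the array medians, and which parts of the transcript they match was not analysed here.

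**Figure D2:**
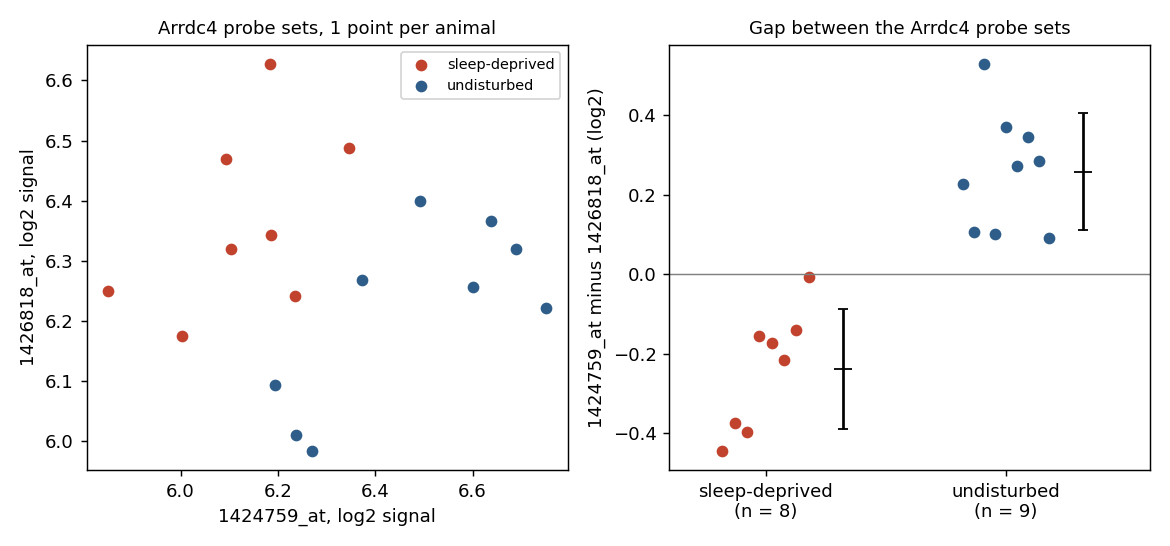
Left, log2 signal of the Arrdc4 probe sets 1424759_at (horizontal) and 1426818_at (vertical), 1 point per animal; right, 1424759_at minus 1426818_at by group, with mean and SD, sleep-deprived mice (n = 8) left of undisturbed mice (n = 9). The gap lies below 0 in all 8 sleep-deprived mice and above 0 in all 9 undisturbed mice.

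Whether the 5 genes varied together from animal to animal was examined within each group, on the brightest probe set of each gene, with exact two-sided permutation tests. None of the 20 relations between members passed a Benjamini-Hochberg adjusted p of 0.05, and 2 had an unadjusted p under 0.05. Both were between Txnip and Arrdc1. In sleep-deprived mice Pearson's r was 0.72 (exact permutation p = 0.0493, adjusted p = 0.411, n = 8) and Spearman's rho 0.74 (exact permutation p = 0.0416). In undisturbed mice r was 0.75 (exact permutation p = 0.0177, adjusted p = 0.354, n = 9) and rho 0.52 (exact permutation p = 0.162). Without the 2 arrays farthest from the median of Txnip, r was 0.52 in sleep-deprived and 0.26 in undisturbed mice, so the relation in undisturbed mice rested on those arrays.

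Each gene was also set against the mean of the choroid plexus markers, of the endothelial markers and of a list of glucocorticoid receptors and target genes, and 2 of these 30 relations passed by Pearson's r and none by Spearman's rho. Both concerned Arrdc2 in sleep-deprived mice. By Pearson's r, 6 of the 30 had an unadjusted p under 0.05. Among these, Arrdc4 and the glucocorticoid list had an r of 0.75 in sleep-deprived mice (exact permutation p = 0.0302, adjusted p = 0.151). In undisturbed mice their r was also 0.75 (exact permutation p = 0.0208, adjusted p = 0.151). For Arrdc2 and the glucocorticoid list in sleep-deprived mice, r was 0.93 (exact permutation p = 0.00322, adjusted p = 0.0499, n = 8) and rho 0.76 (exact permutation p = 0.0368, adjusted p = 0.276). Replicates 1, 7 and 4, the mice highest in Arrdc2, were also the highest of all 17 in the list mean, at 9.77, 9.82 and 9.67. Without the 2 arrays farthest from the median of Arrdc2, replicates 1 and 7, r was 0.82 (exact permutation p = 0.0667, n = 6). Replicate 4 stayed in that set. The rest of the sleep-deprived mice had list means of 9.467 to 9.555, below replicates 1, 7 and 4. Whether Arrdc2 followed the list among the rest was not tested, so r rests largely on those replicates. After median centring of the arrays r was 0.92 (permutation adjusted p = 0.16) and after cyclic loess 0.90 (permutation adjusted p = 0.095), so the relation did not pass there. In undisturbed mice r was 0.51 and rho 0.28 (exact permutation p = 0.16 for r, n = 9); whether the groups differ in this relation was not tested.

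The other relation that passed was a negative one between Arrdc2 and the endothelial markers in sleep-deprived mice. There the widest gap between the marker means lay between 4 mice at 8.05 to 8.08 and 4 at 8.14 to 8.15. All 4 mice with the highest Arrdc2 were below this gap. Any values have a widest gap, and whether these form separate sets was not tested. With fewer than 6 mice on either side of the gap, no correlation is given for the whole group or within a side. In undisturbed mice, whose marker means ran from 8.04 to 8.35, r was -0.79 (exact permutation p = 0.0137, adjusted p = 0.137, n = 9), rho was -0.85 (exact permutation p = 0.00528, adjusted p = 0.158), and r was -0.65 without the 2 farthest arrays. Of 14 measured endothelial markers, 3 passed a limma adjusted p of 0.05 as lower in sleep-deprived mice (Tek, Slco1a4 and Itm2a) and none as higher, against 2.73% and 1.25% of all genes. The median of the 14 was -0.07, and 6 of the differences were positive. The part of endothelial RNA in the Arrdc2 values was not tested.

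**Figure D3:**
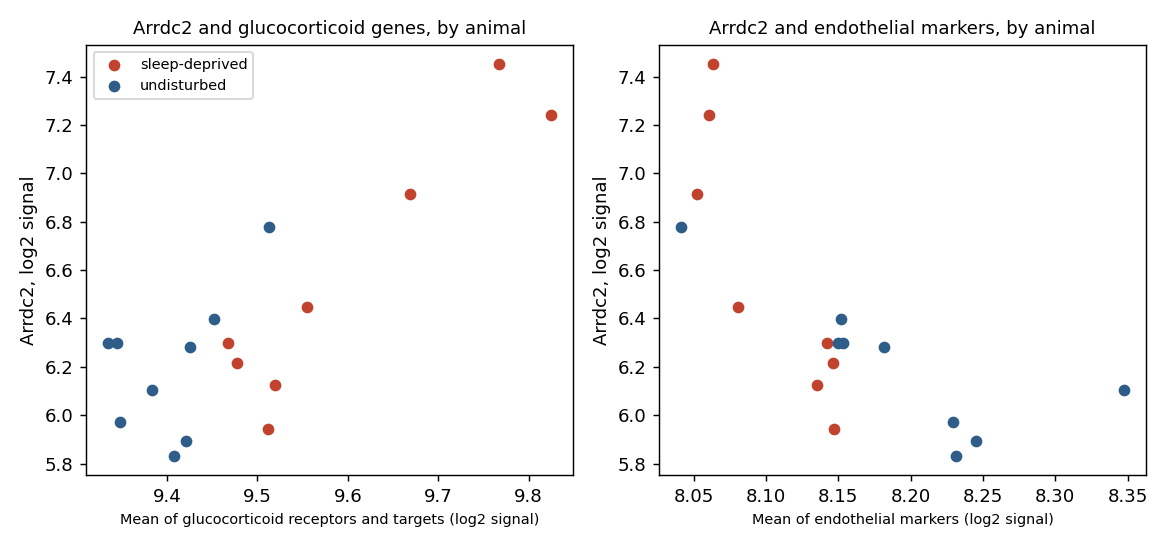
Log2 signal of Arrdc2 against the mean log2 signal of the glucocorticoid list (left) and of the endothelial markers (right), 1 point per animal, sleep-deprived (n = 8) and undisturbed (n = 9). The 3 sleep-deprived mice with Arrdc2 at 6.92 to 7.45 have the highest glucocorticoid list means and endothelial means of 8.05 to 8.06.

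The genes whose brightest probe set followed each member most closely were found among 11568 genes with a mean signal of at least 6, by Pearson's r of values centred on their group mean over the 17 arrays. For Txnip they were Tgfbr3 (r = 0.84), Pigq (0.80) and Tcn2 (0.79). For Arrdc2 they were Smim3 (0.84), Spsb1 (0.84) and Klf15 (0.84), the last a transcription factor induced by glucocorticoids and an entry of the glucocorticoid list. Arrdc4 at 1424759_at was followed by Mt2 (0.81), a metallothionein and also an entry of that list, Homer3 (0.78) and Xk (0.77). Arrdc1 was followed by Prss2 (0.91), Tpx2 (0.90) and Spem1 (0.89), all dimmer than Arrdc1 at mean signals of 6.32 to 6.90. Arrdc3 was followed by Fkbp1a (0.76), Secisbp2l (0.71) and Ano3 (0.70). No gene was shared between these sets, and as the highest of many values they are a description.

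Genes in lists around the alpha-arrestins were compared between the groups with limma over all 18193 genes, using the brightest probe set of each gene. The lists ran from partners and cargo of the family to FOXO and glucocorticoid targets, which need not act with it. Of 132 measured genes in 8 lists, 10 rose and 4 fell in sleep-deprived mice at an adjusted p of 0.05, and 118 did not pass. Over all genes 1.25% rose and 2.73% fell. The median difference was 0.01 over the 132 genes and 0.00 over all genes. Of the 10 genes that rose, 9 were in the glucocorticoid list.

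Among 22 genes of the thioredoxin and peroxiredoxin system, the redox partners of Txnip, 1 rose and 1 fell, with a median of -0.01. Msrb2, a mitochondrial methionine sulfoxide reductase, rose by 0.14 (SE 0.04, limma adjusted p = 0.044). Txnl1, a thioredoxin-like protein of the proteasome, fell by 0.16 (SE 0.04, limma adjusted p = 0.040). Both calls were lost in several of the alternatives below. Over all of these the difference of Txnl1 ran from -0.174 to -0.070, and that of Msrb2 from 0.126 to 0.175. Thioredoxin itself, Txn1, averaged 11.21 ± 0.06 in sleep-deprived and 11.22 ± 0.09 in undisturbed mice.

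None of 21 genes of glucose sensing and transport passed in limma's test, and 1 had an unadjusted p under 0.05; their median was 0.01. Mlxip, which encodes MondoA, differed by -0.05 (SE 0.07), Mlxipl, which encodes ChREBP, by 0.08 (SE 0.06), and their partner Mlx by -0.03 (SE 0.05). The transporter genes Slc2a1 and Slc2a3, for GLUT1 of the blood-brain barrier and glia and GLUT3 of neurons, differed by 0.10 (SE 0.08) and 0.03 (SE 0.05). These 5 genes were named for their roles after their values were seen.

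Of 11 NEDD4-family ligases and their adaptors, Hecw2 fell and no other passed. Hecw2 averaged 5.91 ± 0.22 in sleep-deprived and 6.39 ± 0.12 in undisturbed mice (SD, n = 8 and 9), a difference of -0.48 (SE 0.08, limma adjusted p = 0.00098). Over the mean of its 2 probe sets the difference was -0.26 (limma adjusted p = 0.018). It was a dim gene, near the array medians. Of 16 genes of the ESCRT machinery and of known alpha-arrestin cargo, Slc11a2, which encodes the iron transporter DMT1, fell and no other passed. Its difference was -0.30 (SE 0.06, limma adjusted p = 0.0029), but -0.07 (limma adjusted p = 0.22) over the mean of its 4 probe sets. None of 9 other arrestin-fold genes, which include the beta-arrestins, and none of 7 inflammasome genes passed in limma's test, nor did any have an unadjusted p under 0.05. Of these, 2 of the 9 and 4 of the 7 had mean signals under 6, below the array medians, where a change could be missed.

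Of 20 FOXO factors and targets, 16 had positive differences, with a median of 0.06, against 9248 of 18193 genes in all with positive differences. None rose in limma's test at an adjusted p of 0.05. An unadjusted limma p under 0.05 was found in 7 of the 20, and in 3377 of 18193 genes in all. The 7 held differences of both signs, with Foxo1 among the negative ones. Foxo1, an insulin-regulated factor, fell, with a difference of -0.26 (SE 0.06, limma adjusted p = 0.011), and did not pass over the mean of its 4 probe sets (difference -0.15, limma adjusted p = 0.053).

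The glucocorticoid list, drawn up with earlier results of these arrays known, held most of the genes that rose. Of its 26 genes 9 rose, none fell and 22 had positive differences, with a median of 0.21. Tsc22d3, the glucocorticoid-induced leucine zipper, rose by 0.51 (SE 0.09, limma adjusted p = 0.0033), or by 0.33 over the mean of its 4 probe sets (limma adjusted p = 0.0037). Gjb6, the astrocyte connexin Cx30, rose by 0.36 (SE 0.08, limma adjusted p = 0.0082). Tiparp, a mono-ADP-ribosyltransferase, rose by 0.28 (SE 0.05, limma adjusted p = 0.0028), and Dusp1, a phosphatase of MAP kinases, by 0.27 (SE 0.06, limma adjusted p = 0.014). The other 5 that rose were Ddit4, Mertk, Nfkbia, Cdkn1a and Errfi1. The receptors Nr3c1 and Nr3c2 differed by -0.08 (SE 0.04) and -0.13 (SE 0.05) and did not pass. Without sleep-deprived replicate 7 the number of genes that rose over all lists was 6, and without the 5 arrays high in choroid plexus markers it was 3.

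**Figure D4:**
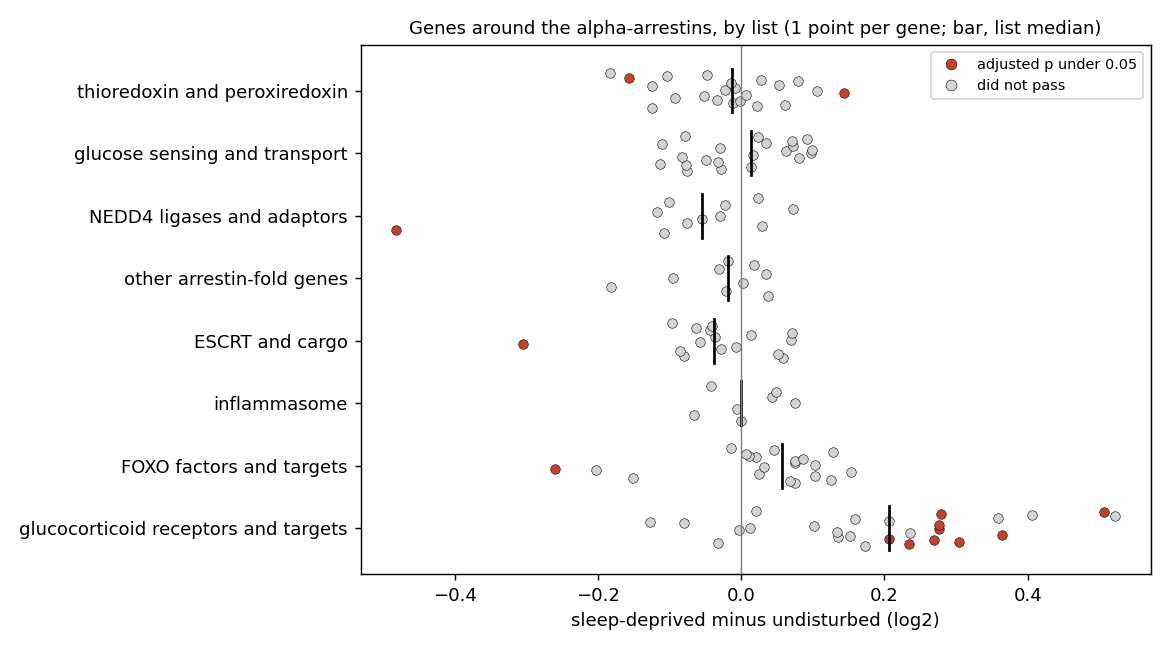
Difference in log2 signal, sleep-deprived minus undisturbed, of each of the 132 measured genes in 8 lists (1 point per gene, list median as a bar); red points passed a limma adjusted p of 0.05. Red points right of 0 number 10, of which 9 are in the glucocorticoid list, and 4 red points lie left of 0, in 4 different lists.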

How the data were processed

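The deposited table holds log2 signals of 17 arrays, made with RMA in the affy package per the submitters' processing notes; their versions and settings were not stated there. RMA corrects background, equalises the distributions of the arrays and summarises probes, so a shift shared by most genes would not be seen. Of its probe sets 64 were controls and were left out of the tests; 34945 had 1 gene symbol, 932 several and 9160 none. No 2 arrays held the same values (highest correlation 0.998). The number of arrays limits precision.

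Groups were taken from the labels. limma 3.58.1 (R 4.3.3; lmFit, eBayes) was fitted over all 45037 probe sets and over 18193 genes (brightest probe set each), with Benjamini-Hochberg adjustment. Probe sets of the alpha-arrestins were kept apart. Correlations within groups used exact permutation over pairings (scipy 1.17.1). The members and lists were chosen with earlier results of these data known. The genes named were all members, up to 4 passing genes per list with the smallest adjusted p, and 3 genes most like each member; Txn1, the glucose-sensing and transporter genes, the glucocorticoid receptors, the other 5 passing genes of that list and the 3 passing endothelial markers were named after their values were seen. Of 139 list entries 132 had a probe set of a single symbol. Promoters came from RefSeq tables (GRCm38.p6) by symbol, with all 5 genes matched. Alternatives covered normalization, dim probe sets, array weights, covariates, the replicate block, probe-set choice and each array left out.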

Additional observations from a re-analysis of the deposited data

Results flagged for a closer look

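Of 42 sets of values tested for a sample far from the others of its group, 4 held one, where chance flags about 1 in 20. For Arrdc3 1454617_at, undisturbed replicate 3 was at 8.76, and the next undisturbed mouse at 8.56. For the difference between 3′ and 5′ control probe sets, a measure of RNA quality, sleep-deprived replicate 5 was at 0.417, and the next at 0.264. For Msrb2, sleep-deprived replicate 4 was at 9.42, and the next at 9.31. For Slc11a2, sleep-deprived replicate 3 was at 7.36, and the next at 7.62.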

How the results depend on the processing

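All 9 alpha-arrestin differences kept their direction in every alternative run, except that of Arrdc1 1444508_s_at, which was near 0. The count of alpha-arrestin probe sets that passed was 0 with the choroid plexus mean as a covariate, 0 with the replicate block, 0 without the 5 arrays high in choroid plexus markers (an alternative chosen after seeing the data), and 0 to 1 with each array left out in turn (0 without sleep-deprived replicate 3 or 5 or undisturbed replicate 3, 6 or 7). The share of all probe sets that passed in each alternative is not given, so nothing is read from these counts either. The difference of Arrdc4 1424759_at itself ran from -0.38 to -0.31 over all alternatives. With the replicate block it was -0.34 and that of Arrdc2 was 0.33, and 8 list genes rose and 4 fell. The correlation of same-numbered animals ran from -0.07 to 0.39 and was over 0.1 in 4 of 8 pairs, and 2 of 8 animals correlated best with their own number. These values were not set against a reference distribution, so they do not settle whether the shared replicate numbers pair the animals. Genes of the lists that rose numbered 6 to 11, and those that fell 3 to 5, with each array left out. Without the 5 arrays high in choroid plexus markers, which also leaves fewer samples, 3 rose and 2 fell, and Tiparp (difference 0.27, adjusted p = 0.060), Dusp1 (0.27, adjusted p = 0.13) and Foxo1 (-0.24, adjusted p = 0.16) did not pass, with differences of similar size to those over all 17 arrays. With a gene's probe sets averaged, 2 fell. Txnl1 did not pass after quantile normalization (adjusted p = 0.076) or cyclic loess (0.071), nor Msrb2 after median centring (0.11), and their adjusted p ran from 0.022 to 0.43 and from 0.010 to 0.27 over all alternatives. The relations that passed between a member and a list mean numbered 4 with probe sets averaged. They numbered 0 after median centring, 0 after cyclic loess and 0 without the 2 farthest arrays, and the cause was not tested. The 4 were those of Arrdc2 and Arrdc4 with the glucocorticoid list and the endothelial markers in sleep-deprived mice. For Arrdc4 and the glucocorticoid list r was then 0.90 (permutation adjusted p = 0.023). Scaling moved the split of calls over all genes: 227 rose and 496 fell as deposited, 142 and 611 after median centring, 335 and 390 after quantile normalization, and 340 and 432 after cyclic loess. Arrdc2 and Arrdc4 lay near the array medians, where background limits what small differences can show.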
